A study of Mus musculus with 18 samples.

Results

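Mouse embryonic fibroblasts lacking IKK2 were treated with TNF for 90 min, and their RNA was compared with that of the same cells left untreated. The comparison rests on 4 of the 18 libraries of the study: 2 from IKK2 knock-out (KO) cells after 90 min of TNF at 10 ng/ml, and 2 from untreated IKK2 KO cells. The libraries were assigned to it by the genotype and time in their column names, without use of any measured value. The comparison itself and the gene lists were chosen with earlier results of these data known. The study used immortalised fibroblast lines of 3 genotypes (IKK2 KO, p65 KO and wild type), each untreated and after 45 and 90 min of TNF, with 2 total RNA libraries in each of the 9 groups. All cells grew in DMEM with 10% FBS. The labels name no clone, mutant allele or mouse strain for the lines. They do not say whether the 2 libraries of a group came from separate cultures, so the spread between libraries may be technical. The p-values measure that spread pooled over all 9 groups, not within the compared groups alone.

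IKK2, encoded by Ikbkb, is the catalytic subunit of the IκB kinase complex that phosphorylates IκBα after TNF binds its receptor. IκBα is then degraded, and NF-κB dimers such as p65 with p50 enter the nucleus and activate genes for chemokines, survival factors and the pathway's own inhibitors. The complex also holds IKK1 (Chuk) and the scaffold NEMO (Ikbkg), and TNF receptors signal in parallel to the JNK, p38 and ERK kinases, which act on immediate-early genes.

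The TNF libraries held 21030830 and 21170894 counts, and the untreated libraries 17676778 and 19255056 counts, in libraries a and b of each group, the order kept for all paired values. Features overlapping ribosomal RNA took 16.1 to 17.3% of the counts in these 4 libraries, against 1.81 to 2.63% in p65 KO and 11.4 to 12.6% in wild-type cells. Ikbkb was at 43.5 and 44.7 CPM (counts scaled for library depth) in the TNF libraries and at 43.1 and 43.7 CPM in the untreated libraries. Without TNF, the mean Ikbkb level was 43.4 CPM for IKK2 KO, 42.7 CPM for p65 KO and 59.9 CPM for wild type, and such counts over the whole gene do not check the deletion. Fibroblast markers summed to 10997 and 11096 CPM in the TNF libraries and to 11002 and 10688 CPM in the untreated libraries. Neural markers summed to between 27.6 and 31.5 CPM over the 4 libraries, most of it Sox2 (29.1 and 29.3 CPM after TNF and 26.8 and 25.0 CPM untreated), and none of the 3 tested passed. Epithelial, endothelial, myeloid, muscle and adipocyte markers each summed to under 3 CPM in every one of the 4 libraries. In bulk RNA, fewer cells of a type and less RNA per cell cannot be told apart.

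After 90 min of TNF the IKK2 KO cells carried more chemokine RNA (Ccl2, Ccl7, Cxcl1 and Cxcl10), more RNA of the TRAF adaptor Traf1, of every NF-κB subunit, of Lif and of the anti-apoptotic gene Birc3. Less RNA was found for a smaller set led by Atoh8, a transcription factor gene, together with Smad6 and Mylip. Rassf7 was also called lower, a call lost in some of the fits that left out a library. A total of 549 of 16322 genes rose (3.36%) and 183 fell (1.12%), at an adjusted p under 0.05 in the edgeR quasi-likelihood test, together 4.48% of the genes tested. Most changes were small: the median was 0.23 on the log2 scale among genes that rose and -0.24 among those that fell, and 34 of the genes called (0.208% of those tested) changed at least 2-fold, 23 upwards (0.141%) and 11 downwards (0.0674%). The TNF and untreated libraries did not overlap for any of the 732 genes called, a separation also found upwards for 23.6% and downwards for 20.3% of all genes tested. The median over all genes tested was 0.00. With DESeq2 in place of edgeR, 358 genes were called, and leaving out 1 library at a time gave 391 without TNF library b, 512 without TNF library a, 424 without untreated library a and 472 without untreated library b.

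**Figure D1:**
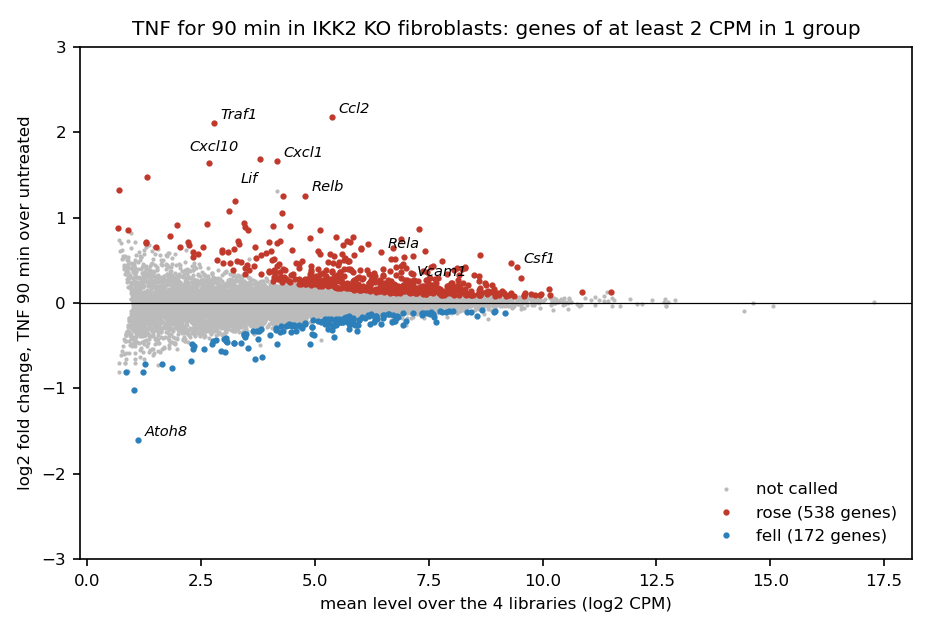
Log2 fold change (TNF 90 min over untreated, IKK2 KO cells, vertical axis) against the mean level over the 4 libraries (log2 CPM, horizontal axis), 1 point per gene of at least 2 CPM in 1 group, with genes called higher in red and called lower in blue. The 538 genes that rose include Ccl2 and Traf1 at the top, and Atoh8 lies lowest among the 172 that fell.

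Chemokines, secreted proteins that draw leukocytes, gave 4 of the 5 largest rises among the named genes. Ccl2, the monocyte attractant MCP-1 (ENSMUSG00000035385, chromosome 11, 82035571 to 82037453, GRCm38), stood at 68.4 and 68.0 CPM after TNF, against 15.2 and 14.9 CPM untreated. This was a 4.53-fold rise, 2.18 ± 0.06 on the log2 scale (SE, adjusted p = 1e-28). Its neighbour Ccl7, another monocyte attractant, had 9.34 and 9.92 CPM after TNF and 3.16 and 3.02 CPM untreated, a log2 change of 1.64 ± 0.15. For both genes the TNF libraries lay close together and well above the untreated ones. Cxcl10, a ligand of the chemokine receptor CXCR3, measured 22.2 and 20.4 CPM after TNF, against 6.93 and 6.33 CPM untreated (log2 change 1.69 ± 0.11, adjusted p = 4.1e-16). Cxcl1, a neutrophil attractant, measured 28.2 and 26.5 CPM after TNF, against 8.73 and 8.50 CPM untreated (log2 change 1.67 ± 0.10, adjusted p = 1.3e-16). The membrane-bound chemokine Cx3cl1 rose by 0.50 on the log2 scale, at 56.6 and 60.5 CPM after TNF and 42.4 and 40.4 CPM untreated. Ccl20, which attracts CCR6-bearing cells, was called higher at a very low level, 1.64 and 1.16 CPM after TNF against 0.371 and 0.513 CPM untreated, and lost its call without untreated library a and without TNF library a. Cxcl12, the constitutive ligand of CXCR4, was the 1 chemokine that fell (log2 change -0.12), a call lost when any 1 of the 4 libraries was left out. Of 13 chemokines listed 10 were tested, of which 6 rose and 1 fell, against 3.36% and 1.12% of all genes tested. Their median log2 change was 1.39 against 0.00 over all genes. Cxcl5 and Cxcl16 had no count in these 4 libraries. With tested genes that had no count in a group set at 3 counts there, and those with 3 or fewer in both groups left out, the median was 1.63 for chemokines, and it moved to 0.15 for feedback genes, 0.27 for cytokines, -0.14 for BMP, SMAD and ID genes, 0.01 for p53 targets and 0.13 for nuclear long non-coding RNAs.

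Each of the 5 NF-κB subunit genes rose, against 3.36% of all genes tested, with a median log2 change of 0.75 against 0.00 over all genes. Relb, the subunit of the non-canonical pathway, was at 39.1 and 38.8 CPM after TNF, against 16.8 and 15.7 CPM untreated, a log2 change of 1.26 ± 0.07 (adjusted p = 5.2e-18). Rel, which encodes c-Rel, had 74.0 and 71.5 CPM after TNF and 41.5 and 43.6 CPM untreated (0.77 ± 0.05). Nfkb2, the p100 precursor of p52, had 147 and 151 CPM after TNF and 88.4 and 89.1 CPM untreated (0.75 ± 0.04); its bounds overlap those of Psd, and reads in the overlap may not be separable. Among these genes the rise of Relb was the largest, and no TNF library overlapped an untreated one. Rela, which encodes p65, rose by 0.59 ± 0.04, at 106 and 105 CPM after TNF and 67.0 and 72.4 CPM untreated. Nfkb1, the p105 precursor of p50, rose by 0.55 ± 0.03, at 166 and 171 CPM after TNF and 116 and 115 CPM untreated.

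The inhibitors of the pathway moved in part. Nfkbie, which encodes IκBε, had 3.54 and 3.73 CPM after TNF and 1.55 and 1.08 CPM untreated, a log2 change of 1.47 ± 0.24 (adjusted p = 3.2e-05). Nfkbia, which encodes IκBα, the main substrate of IKK2, had 69.6 and 66.3 CPM after TNF and 40.8 and 42.0 CPM untreated (0.71 ± 0.05). Tnfaip3, the ubiquitin-editing enzyme A20, had 51.0 and 50.7 CPM after TNF and 32.9 and 36.5 CPM untreated (0.55 ± 0.05). The untreated libraries were the lower pair in each case. Tnip1, an A20-binding protein, rose by 0.40. The other 8 of the 12 feedback genes tested did not pass, among them Nfkbib at 0.34 (adjusted p = 0.071), Nfkbiz at 0.15 and Bcl3 at -0.17, and the median over the 12 was 0.13. None of the 13 genes for the IKK complex and its upstream kinases passed the test in either direction (median 0.02), where 4.48% of all genes tested did. Chuk, the other catalytic IKK subunit, had 54.2 and 56.2 CPM after TNF and 53.6 and 55.5 CPM untreated, and the TAK1-binding adaptor Tab2 had 149.97 and 151 CPM after TNF and 147 and 149 CPM untreated.

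The RefSeq promoter windows (GRCm38.p6, 250 bases before to 50 after the gene start, 300 in all) of 5 genes from these chemokine, inhibitor and subunit groups and of Csf1 are given because each holds a match to the NF-κB consensus, searched on both strands and set in capitals, in lower-case sequence on the gene's strand, 5′ to 3′. In Cxcl1 the 2 matches lie on opposite strands and overlap, beginning 71 and 70 bases before the gene start. Those in Rel do likewise, at 92 and 91 bases, while Cxcl10 has 2 separate ones.
Cxcl1 chr5:90890995-90891294 (+ strand): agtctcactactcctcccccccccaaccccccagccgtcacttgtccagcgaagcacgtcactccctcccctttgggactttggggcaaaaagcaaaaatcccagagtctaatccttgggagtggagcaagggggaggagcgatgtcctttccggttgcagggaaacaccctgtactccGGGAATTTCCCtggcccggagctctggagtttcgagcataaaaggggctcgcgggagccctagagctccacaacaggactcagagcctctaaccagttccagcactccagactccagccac
Cxcl10 chr5:92348840-92349139 (- strand): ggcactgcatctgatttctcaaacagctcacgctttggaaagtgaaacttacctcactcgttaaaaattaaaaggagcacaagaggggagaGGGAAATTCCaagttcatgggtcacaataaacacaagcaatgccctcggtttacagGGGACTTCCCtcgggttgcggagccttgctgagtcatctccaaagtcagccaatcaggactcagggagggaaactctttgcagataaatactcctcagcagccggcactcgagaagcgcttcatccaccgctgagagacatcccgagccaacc
Nfkbie chr17:45555450-45555749 (+ strand): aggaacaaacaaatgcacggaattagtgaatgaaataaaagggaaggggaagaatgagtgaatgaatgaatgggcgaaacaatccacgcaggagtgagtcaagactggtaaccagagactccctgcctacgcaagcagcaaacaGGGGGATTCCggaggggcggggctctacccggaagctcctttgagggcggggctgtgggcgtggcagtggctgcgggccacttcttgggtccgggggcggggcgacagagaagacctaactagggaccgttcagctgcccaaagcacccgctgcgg
Nfkbia chr12:55492598-55492897 (- strand): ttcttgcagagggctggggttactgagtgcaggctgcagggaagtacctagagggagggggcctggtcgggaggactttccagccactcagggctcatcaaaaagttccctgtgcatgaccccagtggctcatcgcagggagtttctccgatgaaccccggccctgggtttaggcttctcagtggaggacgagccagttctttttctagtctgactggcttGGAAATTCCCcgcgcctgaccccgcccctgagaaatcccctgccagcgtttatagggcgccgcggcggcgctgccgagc
Rel chr11:23770920-23771219 (- strand): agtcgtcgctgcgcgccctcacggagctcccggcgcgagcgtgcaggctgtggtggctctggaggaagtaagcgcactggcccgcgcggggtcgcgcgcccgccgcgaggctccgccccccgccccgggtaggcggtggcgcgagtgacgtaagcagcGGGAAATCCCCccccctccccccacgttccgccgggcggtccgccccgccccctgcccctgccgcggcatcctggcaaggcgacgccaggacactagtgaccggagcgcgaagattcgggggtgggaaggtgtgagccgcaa
Csf1 chr3:107760420-107760719 (- strand): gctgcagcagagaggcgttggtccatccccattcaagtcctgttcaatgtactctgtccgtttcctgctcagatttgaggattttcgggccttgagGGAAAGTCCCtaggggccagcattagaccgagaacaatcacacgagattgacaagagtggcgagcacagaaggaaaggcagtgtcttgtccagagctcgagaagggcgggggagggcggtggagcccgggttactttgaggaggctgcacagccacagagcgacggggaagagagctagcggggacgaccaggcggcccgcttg
The match begins 29 bases before the start in Nfkbia, 106 in Nfkbie and 154 in Csf1. A match was present in the windows of all 4 feedback genes that rose (Nfkbia, Nfkbie, Tnfaip3 and Tnip1) and of 2 of the 3 subunit genes that had a window (Rel and Nfkb2). Of the 15 protein-coding genes named for their rise 10 had a window, and 3 of these held the consensus (Cxcl1, Cxcl10 and Nfkbie). Among the 15 named for their fall it was 0 of the 14 with a window. Of all genes that rose and had a window, 51 of 409 held it in any of their windows (12.5%). The same count gave 9 of 138 for all that fell (6.52%) and 624 of 10159 for all genes tested (6.14%). It gave 5.14% of all 27025 symbols with a window, and counted per window the share was 4.51% of 32851. The AP-1 motif TGANTCA was held by 7.82% of the genes with a window that rose, 2.9% of those that fell, and 6.27% of those tested. The cAMP response element TGACGTCA was held by 6.36% of the genes with a window that rose, 2.17% of those that fell, and 3.54% of those tested. A match describes letters in the window and is not a bound site.

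Of 12 TNF receptor, adaptor and TRAF genes 3 rose and none fell, against 3.36% and 1.12% of all genes tested, and their median was -0.05. Traf1, a TRAF adaptor that binds TNF receptor 2 and the cIAPs, had 11.0 and 11.3 CPM after TNF and 2.48 and 2.68 CPM untreated, a rise of 2.11 ± 0.15 on the log2 scale (adjusted p = 8.3e-15). Traf3, which restrains the non-canonical pathway, had 98.6 and 106 CPM after TNF and 77.8 and 77.5 CPM untreated (0.40 ± 0.04). Traf4 was also called higher, a call lost with DESeq2 and when any 1 library was left out. The receptor gene Tnfrsf1a (-0.03) and the kinase gene Ripk1 (-0.08) did not pass. Of 10 survival genes tested 2 rose and 1 fell, with a median of 0.00. Birc3, which encodes the ubiquitin ligase cIAP2, had 11.2 and 12.4 CPM after TNF and 4.83 and 6.27 CPM untreated (1.08 ± 0.12, adjusted p = 8.3e-09). Ier3, a stress-induced survival gene, had 64.5 and 65.5 CPM after TNF and 38.8 and 39.7 CPM untreated (0.73 ± 0.05). Bcl2l1, which encodes the anti-apoptotic protein Bcl-xL, was the 1 that fell, at 53.4 and 55.1 CPM after TNF and 64.4 and 64.9 CPM untreated (-0.25 ± 0.05).

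**Figure D2:**
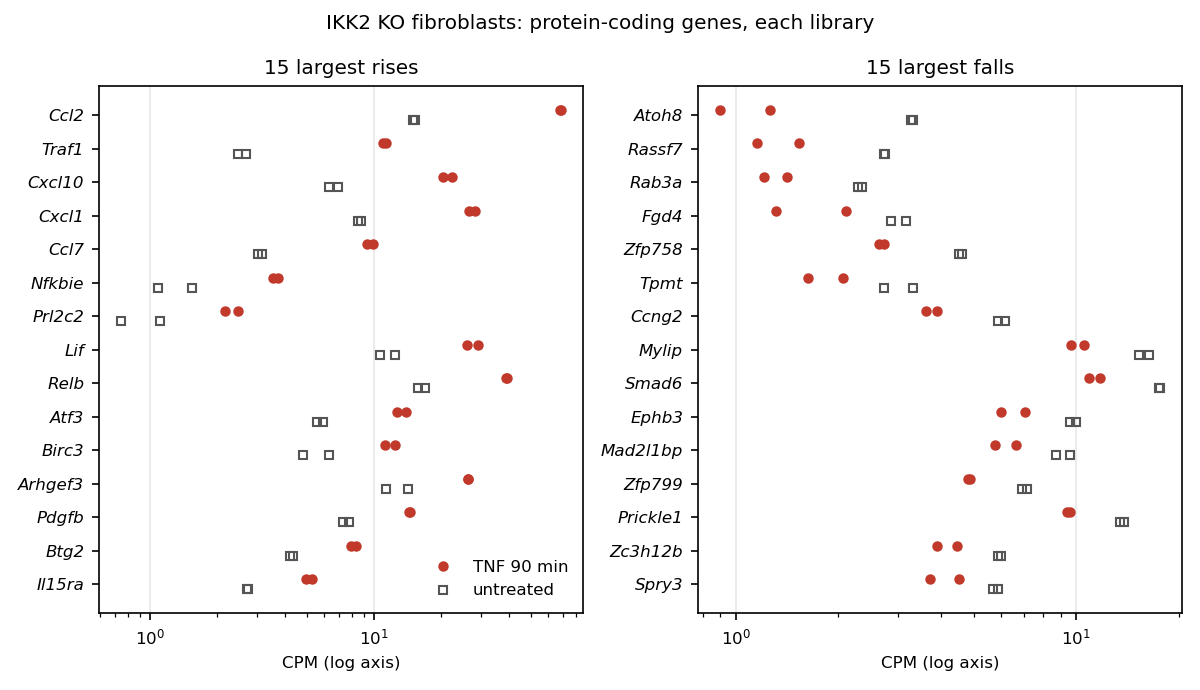
Level (CPM, log axis) of named genes in each of the 4 IKK2 KO libraries, with TNF 90 min libraries and untreated libraries as separate points. The TNF points of Ccl2 at 68.4 and 68.0 lie above its untreated points at 15.2 and 14.9, and those of Atoh8 lie below its untreated points.

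Among 10 cytokines and growth factors tested 5 rose and none fell, against 3.36% and 1.12% of all genes tested, with a median of 0.24. Lif, which encodes leukaemia inhibitory factor, had 26.0 and 29.2 CPM after TNF and 10.6 and 12.4 CPM untreated (1.26 ± 0.09, adjusted p = 7.8e-15). Csf1, the macrophage growth factor M-CSF, had 786 and 805 CPM after TNF and 599 and 589.8 CPM untreated (0.42 ± 0.03). The EGF-receptor ligand genes Ereg, Areg and Hbegf rose by 0.36, 0.27 and 0.22 on the log2 scale, the call of Areg being lost in 2 of the 4 fits that left out a library. Pdgfb, a mitogen chain outside the list, had 14.5 and 14.3 CPM after TNF and 7.74 and 7.30 CPM untreated (0.94 ± 0.11). Il6, Tnf, Il1a, Il1b, Csf2 and Csf3 had at most 1 count in any of the 4 libraries and were not tested. Of 9 inflammatory effector genes tested 4 rose, with a median of 0.33. Tlr2, a receptor for bacterial lipoproteins, had 13.8 and 15.02 CPM after TNF and 7.99 and 7.58 CPM untreated (0.89 ± 0.11). The prostaglandin synthesis genes Ptgs2 (0.33) and Ptges (0.27) and the adhesion molecule gene Vcam1 (0.26) rose less. The interleukin-15 receptor chain Il15ra had 5.28 and 4.99 CPM after TNF and 2.72 and 2.74 CPM untreated (0.91 ± 0.17).

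Of 27 immediate-early genes 11 rose at 90 min and none fell, against 3.36% and 1.12% of all genes tested, with a median of 0.23. Atf3, a stress-responsive transcription factor gene, had 12.6 and 13.9 CPM after TNF and 5.94 and 5.59 CPM untreated (1.20 ± 0.11, adjusted p = 2.7e-11). Btg2, an anti-proliferative gene, had 7.92 and 8.30 CPM after TNF and 4.21 and 4.33 CPM untreated (0.92 ± 0.14). The AP-1 subunit genes Fosl2 (0.56), Junb (0.53), Jun (0.45) and Fosl1 (0.34) rose, while Fos (-0.31) and Egr1 (-0.09) did not pass the test. Of 17 genes for MAPK phosphatases and feedback inhibitors 6 rose and 1 fell, with a median of 0.19. Dusp5, a nuclear ERK phosphatase, had 116 and 124 CPM after TNF and 81.5 and 86.0 CPM untreated (0.52 ± 0.04). Dusp16, a JNK and p38 phosphatase, rose by 0.68, Dusp8, of the same class, by 0.63, and Errfi1, an inhibitor of the EGF receptor, by 0.40. Dusp8 lost its call in 2 fits that left out a library. Spry1, an antagonist of receptor tyrosine kinase signalling, fell by 0.40, at 37.4 and 37.0 CPM after TNF and 46.9 and 51.2 CPM untreated.

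Genes of BMP signalling made up part of the falls. Atoh8, a basic helix-loop-helix factor gene (ENSMUSG00000037621, chromosome 6, 72206177 to 72235577), had 0.897 and 1.26 CPM after TNF and 3.28 and 3.31 CPM untreated, a log2 change of -1.60 ± 0.26 (adjusted p = 3.1e-05). Smad6, an inhibitory SMAD, had 10.9 and 11.7 CPM after TNF and 17.5 and 17.6 CPM untreated (-0.63 ± 0.10, adjusted p = 1.3e-05). Both kept their call in every alternative run. The inhibitors of differentiation Id2 (-0.22) and Id3 (-0.14) fell less and lost their calls in 1 and 3 of the fits that left out a library. In the list of 14 BMP, SMAD and ID genes tested, 4 fell and 2 rose, against 1.12% and 3.36% of all genes tested, with a median of -0.18. The 2 that rose were Grem1, a secreted BMP antagonist (0.27), and Inhba, an activin chain (0.24).

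The remaining named falls were spread over other functions. Mylip, a ubiquitin ligase that degrades the LDL receptor, had 10.5 and 9.66 CPM after TNF and 15.3 and 16.4 CPM untreated (-0.65 ± 0.09, adjusted p = 1.9e-06). Zfp758, a zinc-finger gene, had 2.64 and 2.73 CPM after TNF and 4.52 and 4.62 CPM untreated (-0.77 ± 0.17, adjusted p = 0.003). Ccng2, an atypical cyclin, had 3.91 and 3.62 CPM after TNF and 5.88 and 6.16 CPM untreated (-0.68 ± 0.16). In each the TNF libraries were the lower pair. Rassf7, a RAS-association domain gene, changed by -1.02, the synaptic GTPase gene Rab3a by -0.81, the CDC42 exchange factor gene Fgd4 by -0.81 and the thiopurine methyltransferase gene Tpmt by -0.71. The other 6 protein-coding falls named, Ephb3, Mad2l1bp, Zfp799, Prickle1, Zc3h12b and Spry3, lay between -0.57 and -0.49. Of the 15 named falls only Atoh8, Zfp758, Mylip and Smad6 kept their call in every alternative, the other 11 losing it in at least 1. Of the 15 named rises, 14 kept it, the exception being Prl2c2, of a multigene placental hormone family whose reads can be shared, at 2.48 and 2.15 CPM after TNF and 1.11 and 0.741 CPM untreated. Arhgef3 stood at 26.2 and 26.4 CPM after TNF and 14.2 and 11.3 CPM untreated (log2 change 1.05 ± 0.08).

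**Figure D3:**
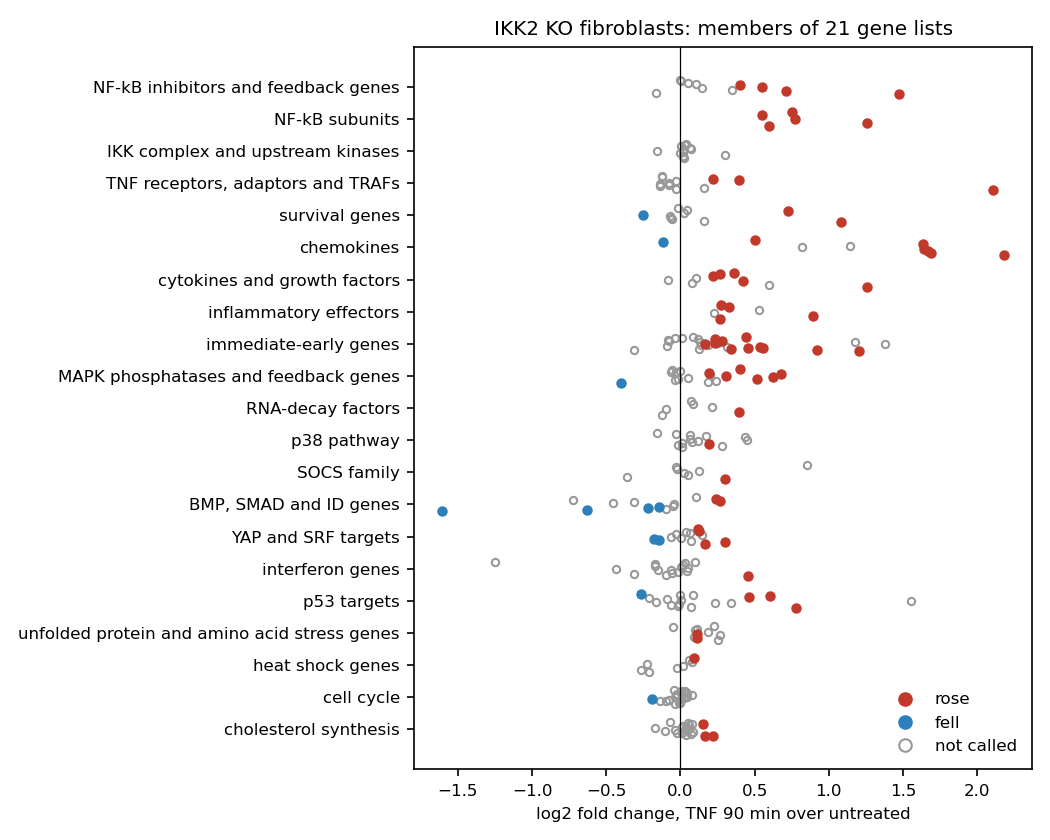
Log2 fold change (TNF 90 min over untreated, IKK2 KO cells, horizontal axis) of gene list members with more than 3 counts in both groups, with the lists down the page and members that passed the test coloured. Cell type marker lists are not drawn. Nor are the fibroblast and matrix, SWI/SNF, histone, nuclear long non-coding RNA, small structural RNA and mitochondrially encoded lists. All 5 NF-κB subunits lie to the right of 0, and the chemokines spread furthest among the lists drawn.

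The p53 target Cdkn1a, which encodes the cell cycle inhibitor p21, had 54.8 and 56.8 CPM after TNF and 33.3 and 31.9 CPM untreated (0.78 ± 0.05, adjusted p = 1.1e-14). The stress kinase genes Plk3 (0.60) and Plk2 (0.46) rose and the DNA polymerase gene Polk fell (-0.27, a call lost when any 1 library was left out), giving 3 rises and 1 fall among 18 p53 targets with a median of 0.04. Of 13 YAP and SRF targets 4 rose, among them the matricellular genes Ccn2 (0.30) and Ccn1 (0.17), and 2 fell, Amotl2 (-0.15) and Lats2 (-0.18, a call lost with DESeq2 and when any 1 library was left out). Of 21 interferon genes tested 1 rose, the transcription factor gene Irf1, at 21.1 and 21.7 CPM after TNF and 15.8 and 15.5 CPM untreated (0.45 ± 0.08). The interferon list had a median of -0.02, and 1 rise among 21 is near the share of all genes tested (3.36% rose and 1.12% fell). Among 6 RNA-decay factors 1 rose, Zfp36l1, a member of the tristetraprolin family (0.40). Of 20 cholesterol synthesis genes 3 rose, with a median of 0.04, of which Hmgcs1 changed most (0.22). The fibroblast and matrix list had 4 rises among 15 (median 0.06), including fibronectin, Fn1 (0.13), and the p38 pathway 1 rise among 14 (Map2k3, 0.19). The other matrix rises, Has2, Lox and Timp1, each lost their call in at least 2 fits that left out a library.

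Several lists were nearly flat, to be read beside the 3.36% of all genes tested that rose and the 1.12% that fell. Among 22 cell cycle genes 1 fell (Aurka, -0.19) and none rose, among 19 SWI/SNF subunit genes 1 fell (Arid1b, -0.12), and none of 12 histone, 15 mitochondrially encoded or 7 small structural RNA genes passed in either direction. The SOCS family had 1 rise among 8 (Socs1, 0.30), the heat shock list 1 among 8 (Hspd1, 0.09) and the unfolded protein list 2 among 10 (Hspa5 and Atf4, both 0.11). Each of these calls but that of Hspa5 was lost in at least 2 fits that left out a library. Outside protein-coding genes, the nuclear long non-coding RNA Neat1, the scaffold of paraspeckles, had 418 and 440.5 CPM after TNF and 333 and 357 CPM untreated (0.31 ± 0.03). Pvt1, the long non-coding neighbour of Myc, had 316 and 325 CPM after TNF and 253 and 258 CPM untreated (0.33 ± 0.03). Of 8 nuclear long non-coding RNAs 3 rose (median 0.11), the other two being the imprinting RNA Kcnq1ot1 (0.30) and Xist, which rested on 18 and 11 counts after TNF and 5 and 0 counts untreated. Ftx (0.39) and Spata5l1 (0.39) rose and Tmem250-ps (-0.26) and Trerf1 (-0.24) fell with calls that some alternative removed. They are placed here only because GENCODE M21 does not type them as protein-coding, and whether they encode proteins was not checked.

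The strand setting of the counting is not given in the sources used here, so reads shared with a gene annotated on the other strand cannot be told apart. The bounds of 5 of the 15 protein-coding genes named for a rise (Ccl2, Cxcl10, Atf3, Arhgef3 and Pdgfb) and 5 of the 15 named for a fall (Rab3a, Fgd4, Tpmt, Zfp799 and Zc3h12b) overlap such a gene, Art3 in the case of Cxcl10 and Mpv17l2 in that of Rab3a.

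The 45 min libraries of the same line place the 90 min values in time. Against the same untreated libraries, 543 genes rose (3.33%) and 887 fell (5.43%) at 45 min, together 8.76% of the genes tested. Between the 2 times 15.7% of genes differed, 1653 of them higher at 90 min (10.1%) and 913 lower (5.59%). These comparisons share libraries with the 90 min one, so their values are set side by side. Nfkbia measured 40.8 and 42.0 CPM untreated, 183 and 189 CPM at 45 min and 69.6 and 66.3 CPM at 90 min. Tnfaip3 measured 32.9 and 36.5 CPM untreated, 151 and 147 CPM at 45 min and 51.0 and 50.7 CPM at 90 min. Both inhibitors were highest at 45 min and fell by 1.45 and 1.55 between 45 and 90 min, as did Cxcl1 by 0.96. Btg2 measured 4.21 and 4.33 CPM untreated, 28.1 and 28.4 CPM at 45 min and 7.92 and 8.30 CPM at 90 min. Egr1, a zinc-finger immediate-early factor, measured 41.4 and 41.8 CPM untreated, 321 and 333 CPM at 45 min and 39.0 and 39.0 CPM at 90 min. Fos and Egr1 were called higher at 45 min (2.25 and 2.97), where 19 of the 27 immediate-early genes rose and 4 fell, and neither passed at 90 min. Jun measured 105 and 101 CPM untreated, 306 and 332 CPM at 45 min and 139 and 143 CPM at 90 min.

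Another set of genes was lower than untreated at 45 min and higher at 90 min. Lif measured 10.6 and 12.4 CPM untreated, 5.12 and 7.15 CPM at 45 min and 26.0 and 29.2 CPM at 90 min, and the 90 min libraries exceeded the 45 min ones by 2.18 ± 0.10. Pdgfb measured 7.74 and 7.30 CPM untreated, 3.93 and 4.96 CPM at 45 min and 14.5 and 14.3 CPM at 90 min, a difference between the times of 1.70 ± 0.12. Csf1 measured 599 and 589.8 CPM untreated, 410.2 and 423 CPM at 45 min and 786 and 805 CPM at 90 min, a difference of 0.93 ± 0.03. For these 3 genes the call at 45 min was lower and the call at 90 min higher than untreated, as it was for Ccn2 (-0.65 at 45 min, 0.30 at 90 min), Inhba (-0.48 and 0.24) and Grem1 (-0.39 and 0.27). Atoh8 was lower still at 45 min, at 0.215 and 0.355 CPM, and the 90 min libraries lay 1.91 ± 0.48 above those. Smad6 measured 17.5 and 17.6 CPM untreated, 5.12 and 7.86 CPM at 45 min and 10.9 and 11.7 CPM at 90 min. The BMP, SMAD and ID list had 11 falls and no rise at 45 min (median -0.92), against 4 falls and 2 rises at 90 min. Of all genes tested 5.43% fell and 3.33% rose at 45 min. Id1, an inhibitor of differentiation, changed by -1.07 at 45 min and by -0.10 at 90 min, where it did not pass. Ccng2 had the other order, higher than untreated at 45 min (0.91) and lower at 90 min (-0.68). Ccl2, Traf1 and Cxcl10 were already high at 45 min, at 57.7 and 59.0 CPM, 12.1 and 10.7 CPM and 17.1 and 18.4 CPM.

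**Figure D4:**
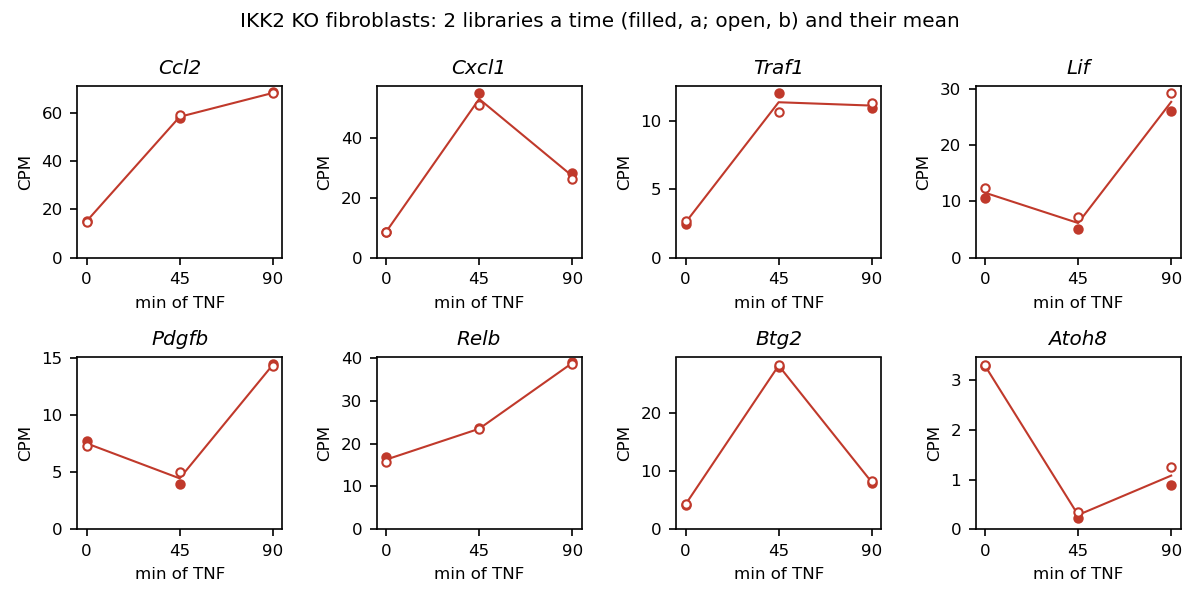
Level (CPM, vertical axis from 0) of 8 genes in the IKK2 KO libraries against min of TNF (0, 45 and 90), 1 point per library (a filled, b open) with a line through the 2-library means. Btg2 and Cxcl1 are highest at 45 min, Lif and Pdgfb are lowest at 45 min and highest at 90 min, and Atoh8 is lowest at 45 min.

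The response at 90 min was then set against that of the other lines, in which TNF for 90 min changed 9.32% (wild type) and 6.48% (p65 KO) of the genes tested. For wild-type cells, 384 genes (2.35%) differed in their response by a test of the difference itself, 136 higher (0.833%) and 248 lower (1.52%) in IKK2 KO. The 6 largest downward differences were in Ccl2, Ccl7, Vcam1, Cxcl10, Bcl3 and Trim21. Untreated levels differed between the 2 lines for 74.3% of all genes. Ccl2 had 68.4 and 68.0 CPM after TNF and 15.2 and 14.9 CPM untreated in IKK2 KO cells, against 50.9 and 48.4 CPM after TNF and 0.123 and 0.101 CPM untreated in wild-type cells, a difference in log2 response of -6.52 ± 0.25 (adjusted p = 1.4e-23). Vcam1 had 150.18 and 151 CPM after TNF and 125 and 126 CPM untreated in IKK2 KO cells, against 81.1 and 83.2 CPM after TNF and 2.63 and 2.74 CPM untreated in wild-type cells (difference -4.67 ± 0.09). The untreated wild-type libraries held 5 counts of Ccl2 in all. Both genes started higher in IKK2 KO cells, and for Vcam1 the untreated IKK2 KO libraries already lay above the TNF-treated wild-type ones. Cxcl10 had 22.2 and 20.4 CPM after TNF and 6.93 and 6.33 CPM untreated in IKK2 KO cells. In wild-type cells it was lower before and after TNF, at 6.59 and 6.19 CPM after TNF and 0.205 and 0.0507 CPM untreated (difference -3.80 ± 0.40). The untreated wild-type libraries held 5 and 1 counts of Cxcl10, and its difference ran from -5.12 without untreated wild-type library a to -3.23 without library b, keeping its call. The antibody-receptor ubiquitin ligase gene Trim21 (-2.84), Nfkbia (-2.03) and Tnfaip3 (-1.92) also differed downwards. Of 12 feedback genes 6 and of 5 subunit genes 4 had a lower response in IKK2 KO, and none a higher one. Bcl3, at 0.158 and 0.105 CPM after TNF and 0.186 and 0.114 CPM untreated, differed by -3.45 with a call lost in 6 fits that left out a library. Ccl7 differed downwards in the fit, but its untreated wild-type libraries held no count and no fold is given. Cxcl1 held 0 counts after TNF and 1 count untreated in the wild-type libraries, which gave no response to compare.

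Responses higher in IKK2 KO than in wild-type cells were smaller. Edn1, which encodes the vasoconstrictor endothelin 1, had 20.7 and 23.1 CPM after TNF and 23.8 and 23.8 CPM untreated in IKK2 KO cells, against 3.30 and 2.42 CPM after TNF and 7.63 and 7.51 CPM untreated in wild-type cells (difference 1.29 ± 0.19). Mex3b, which encodes an RNA-binding protein, rose by 0.52 in IKK2 KO and fell by 0.45 in wild-type cells, a difference of 0.97 ± 0.16. Both differences kept their call in every alternative run. Those of Hs3st3a1 (1.10), Srrm4 (0.89), Spry1 (0.80) and Xist, from the few counts given above, did not. Of 27 immediate-early genes 5 had a higher response in IKK2 KO and none a lower one, against 0.833% and 1.52% of all genes tested.

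Against p65 KO cells, 273 genes (1.67%) differed in their response, 156 higher (0.956%) and 117 lower (0.717%) in IKK2 KO. Tlr2 had 13.8 and 15.02 CPM after TNF and 7.99 and 7.58 CPM untreated in IKK2 KO cells, against 4.26 and 5.28 CPM after TNF and 5.94 and 6.21 CPM untreated in p65 KO cells, a difference of 1.23 ± 0.17 (adjusted p = 9.8e-06). Traf1 had 11.7 and 11.4 CPM after TNF and 5.77 and 5.16 CPM untreated in p65 KO cells, a difference of 1.04 ± 0.19. Its level after TNF was close to that in IKK2 KO cells given above, and its untreated level was lower in IKK2 KO cells. Relb had 17.6 and 18.6 CPM after TNF and 13.3 and 14.2 CPM untreated in p65 KO cells, a difference of 0.86 ± 0.10. All 3 responses were larger in IKK2 KO, and 4 of the 5 subunit genes had a higher response in IKK2 KO and none a lower one, the exception being Rela, the gene targeted in p65 KO (difference 0.42, adjusted p = 0.07). Csf1 rose in IKK2 KO (0.42) and was called lower after TNF in p65 KO (-0.11), a difference of 0.53 ± 0.04. Lif was among the genes with a smaller response in IKK2 KO, 1.26 ± 0.09 against 1.93 ± 0.09 in p65 KO (difference -0.67 ± 0.14), and the response of the stress gene Gadd45a was more negative in IKK2 KO (difference -0.81). The lower response of Atoh8 (-1.15) lost its call in 6 fits that left out a library. Calls were also lost in some alternatives for Zfp791 (2.03), Igsf9 (1.16), Prl2c2 (1.22), Xist, Borcs7 (-0.87), Flrt3 (-0.82) and the small RNA genes Rnu2-10 (-1.26) and Mir703 (-0.98). The share of ribosomal RNA differed between IKK2 KO and p65 KO libraries. A fit without ribosomal RNA and mitochondrial features, chosen after seeing the data, called 270 genes for this difference, 261 of them shared with the 273. Any other part of the ribosomal RNA share in these differences was not tested.

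**Figure D5:**
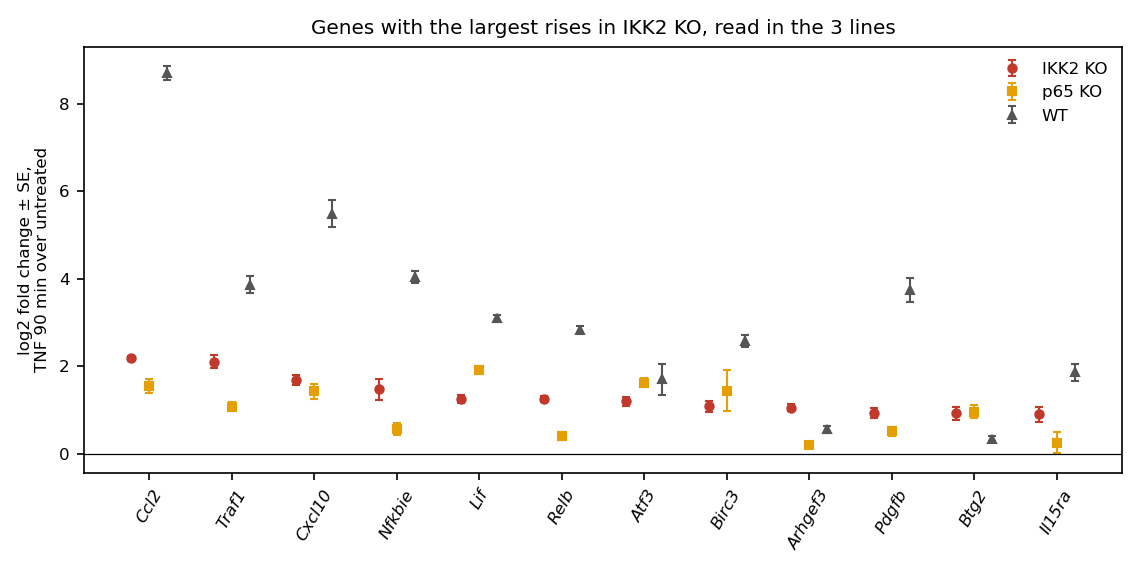
Log2 fold change (TNF 90 min over untreated) of named genes in IKK2 KO, p65 KO and wild-type cells, with error bars of 1 SE; genes with 3 or fewer counts in a group of either other line are left out. Ccl2 is at 2.18 in IKK2 KO and rises most in wild-type cells, whose untreated level was lower.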

How the data were processed

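The deposited table holds estimated counts per gene by the authors, of which 31.8% of the non-zero values are fractional, for 55536 genes in 18 libraries. Per the submitters' processing notes, reads were checked with FastQC 0.11.8, aligned to GRCm38 with HISAT2 and counted with featureCounts of Subread 1.6.2; edgeR 3.26.4 is also named there. How reads with several matches were handled, and which annotation release was used, is not given in the sources used here. Symbols and positions came from GENCODE M21, which held every gene ID.

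Counts were rounded, filtered with filterByExpr (16322 genes kept, 0.0601% of counts lost) and scaled by TMM. Tests were robust quasi-likelihood F-tests (edgeR 4.0.16, R 4.3.3) on a model with a mean for each group and all 18 libraries, with Benjamini-Hochberg adjustment per comparison at 0.05. CPM are rounded counts over TMM-scaled library sizes, and errors are standard errors (SE). Responses of lines were compared by contrasts of differences. Genes were named by rule: the 15 protein-coding genes with the largest change each way among those called, at 2 CPM or more in 1 group and with groups not overlapping, up to 4 of other types, and the 6 largest differences each way from each other line. Members of the lists were also named. The comparison and the lists were chosen with earlier results of these data known. On simulated counts (14573 genes, 50 per fold size) this test recovered 84% of 1.5-fold and 96% of 2-fold changes, with 12 false calls among 202. These rates describe the simulated counts alone and give no error rate for the 732 genes called. They may be too favourable, because a simulation with the wider spread of the IKK2 KO pairs was not run. Replicate libraries differed by more than sampling noise (chi-square per degree of freedom 3.73 after TNF and 4.02 untreated), so none were merged. In the other groups of the study this value lay between 1.12 and 2.79, while the test pools the spread over all groups. The value also counts ribosomal RNA and mitochondrial features, which hold many reads. In libraries a and b the mitochondrial share was 7.52 and 6.41% after TNF and 6.61 and 7.90% untreated. The part of these features in the value was not tested. DESeq2 1.42.0 served as an alternative. Figures used Python 3.11.15 and matplotlib 3.10.9.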

Additional observations from a re-analysis of the deposited data

Results flagged for a closer look

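The change after 90 min of TNF in IKK2 KO cells differed from that in wild-type cells, by a test of the difference itself in edgeR, for 16 of 36 named genes that could be compared. Over all genes tested the share was 2.35%. The named genes were picked by the size of their change in the same IKK2 KO libraries, which favours large values there. Their count is therefore not a test of them as a set. The log2 change was smaller in IKK2 KO for the chemokine genes Ccl2 (-6.52, adjusted p = 1.4e-23) and Cxcl10 (-3.80, adjusted p = 2.9e-09, and between -5.12 and -3.23 over the alternatives, with 6 counts in all in the untreated wild-type libraries). Both genes were at a higher level in IKK2 KO before and after TNF. Mean Ccl2 was 15.1 CPM untreated and 68.2 CPM after TNF, against 0.112 and 49.7 CPM in wild type. Mean Cxcl10 was 6.63 and 21.3 CPM, against 0.128 and 6.39 CPM in wild type. The untreated wild-type libraries held 3 and 2 counts of Ccl2. The log2 change was also smaller for Pdgfb (-2.80, adjusted p = 3e-08), Nfkbie (-2.57, adjusted p = 1.1e-06), Lif (-1.83, adjusted p = 1e-14) and Traf1 (-1.76, adjusted p = 7.9e-05). The rises of Relb (-1.58, adjusted p = 1.9e-14) and Birc3 (-1.49, adjusted p = 8e-07) were smaller in IKK2 KO as well. The zinc-finger gene Zfp758 (-1.02, adjusted p = 0.0025), the methyltransferase gene Tpmt (-1.14, adjusted p = 0.0068) and Tmem250-ps (-0.31, adjusted p = 0.038) had a more negative change in IKK2 KO. The change was more positive in IKK2 KO for Arhgef3 (0.49, adjusted p = 0.014), Btg2 (0.57, adjusted p = 0.023), Ftx (0.38, adjusted p = 0.028), Pvt1 (0.35, adjusted p = 0.00079) and Neat1 (0.22, adjusted p = 0.0018).

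Against p65 KO cells the difference passed for 7 of 36 named genes, picked in the same way, and for 1.67% of all genes tested. The change was more positive in IKK2 KO for Prl2c2 (1.22, adjusted p = 0.0099), Traf1 (1.04, adjusted p = 0.00098), Relb (0.86, adjusted p = 2.6e-07) and Arhgef3 (0.85, adjusted p = 4.6e-08). It was more negative for Atoh8 (-1.15, adjusted p = 0.024), Lif (-0.67, adjusted p = 0.003) and Neat1 (-0.26, adjusted p = 0.0021). Calls lost in at least 1 alternative were those of Zfp758, Tpmt, Tmem250-ps, Arhgef3, Btg2, Ftx and Neat1 against wild type, and of Prl2c2, Atoh8 and Lif against p65 KO.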

How the results depend on the processing

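The 732 genes called at 90 min became 358 with DESeq2, 314 higher and 44 lower, which is 87.7% higher against 75% with edgeR, and 353 of them were shared. Leaving out 1 of the 4 libraries gave 391 to 512. With DESeq2 the other comparisons gave 701 genes at 45 min (edgeR 1430), 1303 between 45 and 90 min (edgeR 2566), 179 for the difference from wild type (edgeR 384) and 115 for that from p65 KO (edgeR 273). Leaving out 1 library at a time gave 901 to 1179, 1728 to 2059, 260 to 336 and 126 to 195 for the same 4 comparisons. The cause was not tested. For the 90 min comparison, RLE size factors gave 730 genes, no filter on low counts 716, counts cut to the whole number below 732, no robust estimation 688 and a fit to these 4 libraries alone 658. Chosen after seeing the data, a fit to protein-coding genes gave 789 and one without ribosomal RNA and mitochondrial features 731. Of 37 named genes called, 21 kept their call in every alternative, 16 lost it in at least 1 and none reversed. Of 84 list members called, 61 kept and 23 lost it. The lower Ikbkb level of untreated IKK2 KO against wild-type cells (-0.46) kept its direction throughout. No paired analysis was possible because the columns carry no replicate numbers of the labels. Il6, Tnf and other cytokine genes with at most 1 count per library were not detectable as changed at this depth.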

Other observations

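Xist, the RNA that coats the inactive X chromosome, had 18 and 11 counts in the IKK2 KO libraries after 90 min of TNF, against 5 and 0 counts in the untreated ones, and 2 and 0 counts at 45 min. In wild-type cells it stood at 1378 CPM after 90 min and 1366 CPM untreated, and in p65 KO cells at 546 CPM after 90 min and 478 CPM untreated. Its call in IKK2 KO was lost when untreated library b or TNF library a was left out.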
